A study of Mus musculus with 18 samples.

Results

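Interleukins, their receptors and the soluble proteins that block them were followed in kidneys of mice given a unilateral ischemia and reperfusion injury (UIR), in which blood flow to a kidney is stopped and then restored. Members were the genes of the deposited expression table whose symbol starts with Il and a digit and whose FPKM was above 0 in at least 3 of 18 libraries. This held for 73 of the 79 genes with such a symbol, in a table of 20825 genes. They are 28 ligands, 39 receptors or receptor subunits, 4 soluble inhibitors and 2 other genes, namely the amino acid oxidase Il4i1 and Il1bos, a transcript antisense to Il1b. Il13, Il17a, Il22, Il31, Il1f8 and Il1rapl1 were above 0 in fewer than 3 libraries and are not members.

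Interleukins are secreted messengers by which leukocytes and tissue cells signal to each other. Most act through receptors built of several chains, which bind the ligand, signal or do both, and some chains are shared among receptors. Receptors of the interleukin 1 family signal through the adaptor MyD88 and IRAK kinases to NF-kappaB, while most others use JAK kinases and STAT transcription factors. In injured kidney, tubule cells are known as a source of interleukin 33, interleukin 34 and interleukin 18, and leukocytes that enter the organ bring both ligands and receptors.

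The study asked how the kidney transcriptome changes with time after ischemia. Groups at each day were UIR mice, whose right renal pedicle was clamped for 45 minutes with the left kidney intact, and sham-treated mice. All were C57BL/6 mice aged 11 weeks with no named genetic change, sampled 1, 3 or 21 days after surgery, with 3 libraries for each of the 6 groups. The labels call the libraries biological replicates of kidney tissue and state neither the sex nor which of the kidneys was sequenced.

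Values are FPKM, a level per unit of transcript length and of library size, which allows levels of different genes to be set side by side. FPKM sums per library ran from 424207 to 549490, and the read depth behind them is unknown, so counting error cannot be stated. Log2 folds are UIR minus sham on the log2(FPKM + 1) scale ± SE, where low genes show too small a fold, and a gene is called higher or lower at a limma adjusted p under 0.05 over 14716 genes tested. The median gene moved by -0.03 at day 1, 0.44 at day 3 and 0.53 at day 21, and 28.5%, 57.6% and 60.7% of all genes were called higher, so a member called higher at the later days shares that call with most genes. Summed proximal tubule markers were 162.47 to 282.4 FPKM in UIR libraries at day 3, against 3081.27 to 3387.23 FPKM in sham libraries, while 3 podocyte markers summed to 48.95 to 219.15 FPKM over all libraries, as kidney tissue should hold. In whole tissue, fewer cells of a type and less RNA per cell cannot be told apart.

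Leukocyte markers moved with time and differed between libraries of a group. Summed neutrophil markers (8 genes) were highest in UIR libraries at day 1 (213.69, 216.91 and 120.89 FPKM), against 78.34, 26.9 and 63.88 FPKM in sham libraries, although Mpo and Elane, genes of immature neutrophils, were at or near 0 throughout. Not all of these markers moved together, since Ly6g had 1.82, 1.44 and 1.19 FPKM in UIR libraries at day 1, against 5.07, 4.15 and 4.45 FPKM in sham libraries, and 5 of the 6 tested were higher and Ly6g lower. Macrophage markers (8 genes) summed to 66.72 to 87.04 FPKM in UIR libraries at day 1, 283.96 to 722.24 at day 3 and 3036.16 to 4275.46 at day 21, against at most 79.19 FPKM in any sham library. T cell markers (7 genes) summed to 2.27 to 3.06 FPKM in UIR libraries at day 1, 47.77, 31.39 and 8.78 FPKM at day 3 and 113.42 to 144.11 FPKM at day 21, against at most 6.63 FPKM in any sham library. Mast cell markers stayed at or under 0.13 FPKM in sum. The third UIR library of day 3 held the fewest T cell, macrophage and neutrophil markers of its group, and it was also the lowest of the 3 for 28 of the 49 members tested (57.1%), against 34.8% of all genes.

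Of the 73 members, 49 reached 1 FPKM in at least 3 libraries and entered the test, among them 14 ligands, 32 receptors, 2 inhibitors and Il4i1. A member high in 1 group only, or in UIR libraries only, can pass this filter through them, so the counts describe the 49 and not the whole set. Il1rn, Il1rl2, Il7 and Il24, among others, had no sham library at 1 FPKM, which favours their calls. At day 1, 17 were higher and 5 lower in UIR libraries, where 28.5% of all genes were higher and 31.1% lower. At day 3, 35 were higher and 2 lower, where 57.6% and 17.9% of all genes were. At day 21, 42 were higher and 3 lower, where 60.7% and 20.1% of all genes were. Increases of at least 2-fold were found for 9, 24 and 35 of the 49 at days 1, 3 and 21, against 6.97%, 22.8% and 29.5% of all genes. Over all 73 members, in a fit of the 19540 genes above 0 in at least 3 libraries, 19, 36 and 54 were higher and 6, 3 and 3 lower, where 23.3%, 47.7% and 55.2% of those genes were higher and 24.6%, 14.3% and 15.9% lower.

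In all, 13 members were higher at each of the 3 days, where 20.7% of all genes were, and 33 at both later days, where 49.3% were. The median member changed by 0.15, 0.89 and 1.45 (log2) at days 1, 3 and 21. These folds depend on scaling: with the libraries set to equal median ratios, which brings the median gene to 0.03 at day 3 and day 21, 30 members were higher and 7 lower at day 3 and 38 and 5 at day 21. After quantile normalization the splits were 25 and 9 at day 3 and 34 and 6 at day 21. At day 1 they were 18 and 5 and 17 and 5 under these scalings. Of all 14716 genes, equal median ratios gave 4551, 5195 and 5650 higher and 4383, 4939 and 5424 lower at days 1, 3 and 21. Quantile normalization gave 4469, 5100 and 5431 higher and 4302, 4858 and 5609 lower. UIR day 21 was the group with the highest mean for 31 of the 49 members (63.3%), against 38.8% of all genes tested. UIR day 1 was highest for 8, namely Il11, Il1f6, Il24, Il7, Il13ra1, Il17ra, Il1r2 and Il20rb (16.3%, against 14.0% of all genes).

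**Figure D1:**
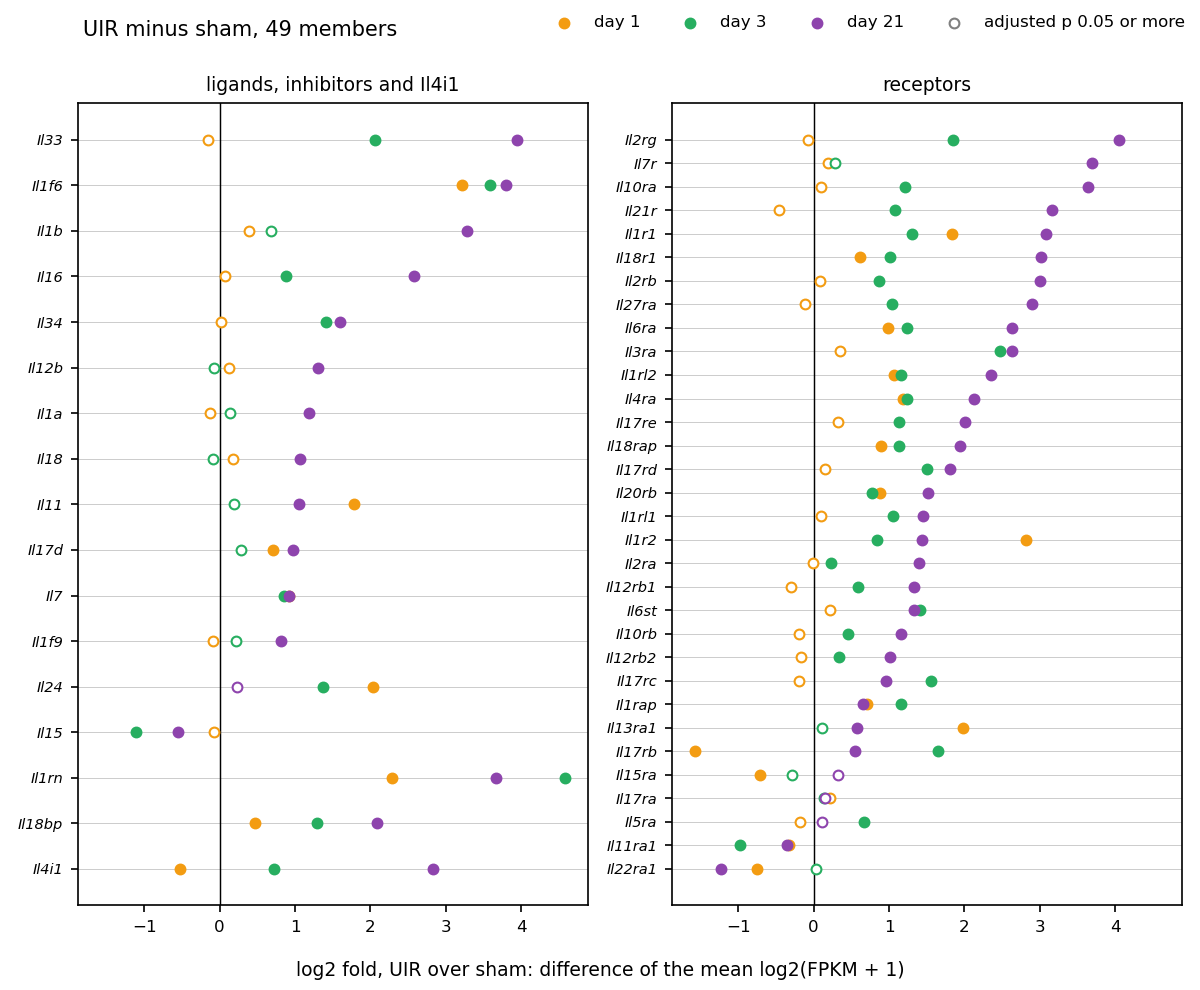
Log2 fold of UIR over sham, as the difference of the group means of log2(FPKM + 1), for the 49 members tested at day 1 (orange), day 3 (green) and day 21 (purple). Filled points have a limma adjusted p under 0.05 and open points do not. Il2rg (4.05), Il33 (3.94) and Il1f6 (3.80) lie farthest right at day 21, and Il17rb lies left of 0 at day 1 and right of it at the later days.

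Some members with large early changes can be placed beside the DNA before their transcription start, the region where the AP-1 and NF-kappaB factors of early injury signalling often bind. Shown are 250 bases that end just before a RefSeq start (GRCm38.p6, gene strand, 5′ to 3′) for 5 members with large increases at day 1 and 2 with decreases, chosen after their values were seen, with capitals for matches to the AP-1 motif TGANTCA or to the kappaB motif (GGGA and TTTCC with 1 base between them) on either strand.
Il6, chr5:30012864-30013113, plus strand: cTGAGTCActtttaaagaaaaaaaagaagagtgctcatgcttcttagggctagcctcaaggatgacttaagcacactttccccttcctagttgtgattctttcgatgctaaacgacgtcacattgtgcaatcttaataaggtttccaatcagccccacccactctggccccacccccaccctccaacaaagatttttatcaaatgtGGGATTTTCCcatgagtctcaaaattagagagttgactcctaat
Il11, chr7:4778142-4778391, minus strand: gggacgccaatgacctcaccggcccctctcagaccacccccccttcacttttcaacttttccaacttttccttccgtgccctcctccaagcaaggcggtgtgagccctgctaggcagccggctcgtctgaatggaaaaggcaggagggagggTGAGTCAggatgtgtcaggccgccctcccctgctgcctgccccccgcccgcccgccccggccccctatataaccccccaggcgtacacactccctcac
Il1rn, chr2:24336610-24336859, plus strand: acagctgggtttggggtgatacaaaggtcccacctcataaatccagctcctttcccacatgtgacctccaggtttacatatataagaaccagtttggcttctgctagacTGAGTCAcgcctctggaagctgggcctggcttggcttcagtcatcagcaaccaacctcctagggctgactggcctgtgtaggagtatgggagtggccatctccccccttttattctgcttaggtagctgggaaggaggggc
Il1r2, chr1:40085843-40086092, plus strand: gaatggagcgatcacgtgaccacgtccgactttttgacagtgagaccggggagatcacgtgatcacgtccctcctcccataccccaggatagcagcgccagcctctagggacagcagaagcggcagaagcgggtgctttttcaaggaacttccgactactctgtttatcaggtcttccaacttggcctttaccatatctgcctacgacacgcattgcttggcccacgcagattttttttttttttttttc
Il13ra1, chrX:36111858-36112107, plus strand: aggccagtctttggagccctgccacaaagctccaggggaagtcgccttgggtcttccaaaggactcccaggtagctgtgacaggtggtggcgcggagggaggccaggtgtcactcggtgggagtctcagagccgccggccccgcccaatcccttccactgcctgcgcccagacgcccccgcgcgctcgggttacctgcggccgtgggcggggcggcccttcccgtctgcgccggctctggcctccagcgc
Il17rb, chr14:30008897-30009146, minus strand: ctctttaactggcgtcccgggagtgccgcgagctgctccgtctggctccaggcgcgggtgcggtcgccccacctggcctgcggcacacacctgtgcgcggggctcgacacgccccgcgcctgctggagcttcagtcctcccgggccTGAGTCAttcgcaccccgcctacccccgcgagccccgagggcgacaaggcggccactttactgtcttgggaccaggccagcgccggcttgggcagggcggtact
Il22ra1, chr4:135727909-135728158, plus strand: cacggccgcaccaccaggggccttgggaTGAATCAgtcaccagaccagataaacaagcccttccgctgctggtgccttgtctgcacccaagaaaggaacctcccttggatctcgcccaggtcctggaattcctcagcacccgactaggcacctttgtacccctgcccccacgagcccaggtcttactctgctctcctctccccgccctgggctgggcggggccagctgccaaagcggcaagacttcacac
Il11 has 2 starts and Il1rn 3 in the table, and the start with a match is printed. AP-1 letters stand in Il6, Il11 and Il1rn, which were higher at day 1, and equally in Il17rb and Il22ra1, which were lower. Il1r2 and Il13ra1, also higher, hold neither motif in this window, and only Il6 of these 7 holds the kappaB letters. Of 57 members with a sequence, 11 (19.3%) held the AP-1 letters before at least 1 start, against 7.82% of 27025 genes, and 2 (3.51%, Il6 and Il16) held the kappaB letters, against 0.41%. Among tested members, AP-1 letters were in 2 of the 14 higher at day 1 (14.29%) and in 6 of the 24 other tested members with a sequence (25.0%). Il1f6 and Il24, which also rose at day 1, are not shown. A match is a description of letters and not a binding site.

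Among the ligands, 5 of 14 tested were higher and 0 lower at day 1, 6 and 1 at day 3, and 12 and 1 at day 21, beside 28.5%, 57.6% and 60.7% of all genes higher and 31.1%, 17.9% and 20.1% lower. Early increases were in Il1f6, Il11, Il24, Il7 and Il17d. By day 21 all 6 interleukin 1 family ligands tested were higher, and Il15 was the 1 ligand that was lower. The plot of ligand levels by library shows these courses.

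**Figure D2:**
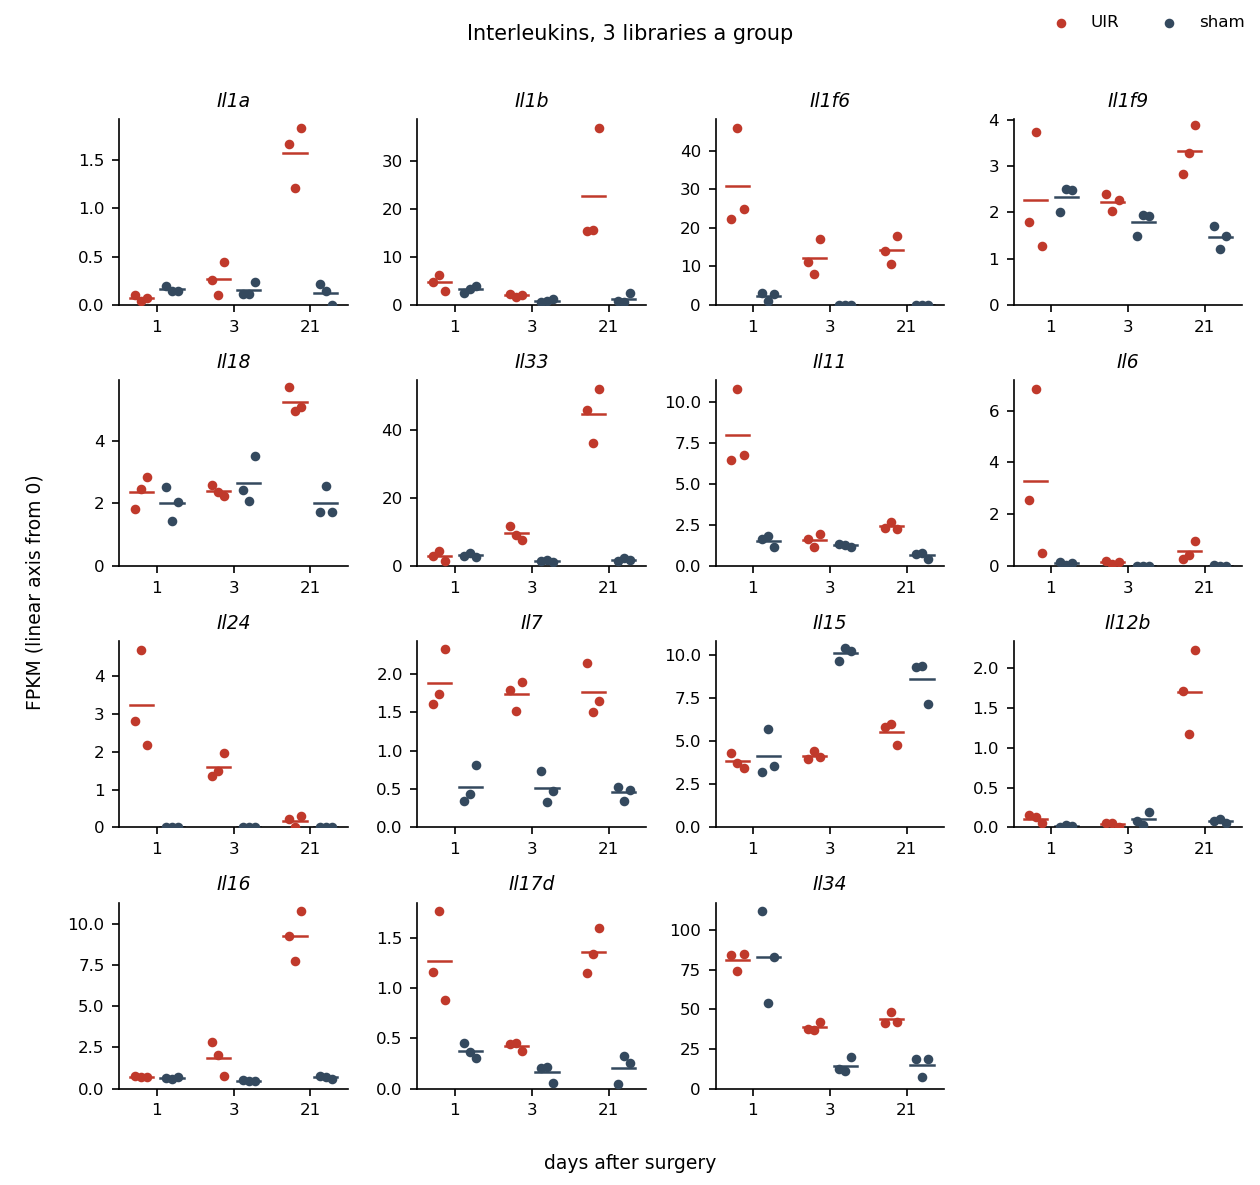
FPKM (linear axes from 0, each with its own range) of 14 tested ligands and of Il6 in every library, UIR (red) left of sham (dark) at days 1, 3 and 21, with bars at the mean of 3 libraries. Il1f6, Il11 and Il24 have their highest UIR values at day 1, Il33, Il1b and Il16 at day 21, and Il34 has sham values at day 1 (54.2 to 112.33 FPKM) above all later ones.

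Il1f6 encodes interleukin 36 alpha, an epithelial member of the interleukin 1 family that drives local inflammation. Il1f6 at day 1 had 22.23, 45.85 and 24.75 FPKM in UIR libraries, against 3.12, 1.18 and 2.86 FPKM in sham libraries (log2 fold 3.22 ± 0.29, limma adjusted p = 1.7e-07). Il1f6 at day 3 had 11.13, 7.99 and 17.16 FPKM in UIR libraries, against 0.15, 0 and 0 FPKM in sham libraries (log2 fold 3.58 ± 0.29, limma adjusted p = 1.8e-08). Il1f6 at day 21 had 14.06, 10.61 and 17.98 FPKM in UIR libraries, against 0.07, 0.15 and 0 FPKM in sham libraries (log2 fold 3.80 ± 0.29, limma adjusted p = 5.6e-09). UIR libraries lay above sham libraries at every day with no overlap, and the sham values themselves were highest at day 1.

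Il1b encodes interleukin 1 beta, the main secreted fever cytokine of myeloid cells. It had 4.8, 6.34 and 3.02 FPKM in UIR libraries, against 2.52, 3.37 and 4.01 FPKM in sham libraries at day 1, where the groups overlapped (log2 fold 0.38 ± 0.32, limma adjusted p = 0.32). Against the sham libraries of days 3 and 21, the day-1 UIR libraries were higher (1.42, limma adjusted p = 0.00022). Il1b at day 3 had 2.37, 1.75 and 2.12 FPKM in UIR libraries, against 0.67, 0.91 and 1.22 FPKM in sham libraries, without overlap but short of the threshold (log2 fold 0.68 ± 0.32, limma adjusted p = 0.064), and it passed with a pseudocount of 0.1, TPM values, library weights or a fit of the day-3 groups alone. Il1b at day 21 had 15.49, 15.55 and 36.82 FPKM in UIR libraries, against 0.81, 0.73 and 2.55 FPKM in sham libraries (log2 fold 3.29 ± 0.32, limma adjusted p = 8.2e-08). The third UIR library of day 21, with more than both others, also held the highest macrophage and neutrophil marker sums of its group (4275.46 and 78.2 FPKM), and their part in the result was not tested. That library was the highest of its group for 31 of the 49 members tested (63.3%), against 31.4% of all genes. Il1a, the cell-associated interleukin 1 alpha, ranged from 1.21 to 1.83 FPKM in UIR libraries at day 21, against 0 to 0.22 FPKM in sham libraries (log2 fold 1.19 ± 0.12, limma adjusted p = 1e-07), and stayed under 0.5 FPKM in all other groups. Only these UIR libraries brought it past the filter, which favours its day-21 call.

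Il33, an alarmin stored in nuclei and released from damaged cells, was not called at day 1, with 2.98, 4.55 and 1.41 FPKM in UIR libraries, against 3.03, 3.81 and 2.83 FPKM in sham libraries (log2 fold -0.16 ± 0.24, limma adjusted p = 0.58). It rose at day 3, with 11.89, 9.27 and 7.7 FPKM in UIR libraries, against 1.56, 1.77 and 1.25 FPKM in sham libraries (log2 fold 2.06 ± 0.24, limma adjusted p = 8.9e-07). Il33 at day 21 had 45.89, 36.28 and 52.06 FPKM in UIR libraries, against 1.63, 2.48 and 1.78 FPKM in sham libraries (log2 fold 3.94 ± 0.24, limma adjusted p = 3.3e-10). On this scale it was the largest increase among the ligands, while with a pseudocount of 0.1 that of Il1f6 was larger (6.43, against 4.45 for Il33). Both later groups were fully apart from sham. Fibroblast markers, from 4 genes, were also higher in UIR libraries, at 200.9, 126.02 and 57.86 FPKM at day 3 and 541.93, 570.83 and 617.4 FPKM at day 21, against 16.28 to 31.61 FPKM in sham libraries of these days, and their part in the Il33 result was not tested. Within day 3 the order of the 3 UIR libraries was the same for Il33, for these markers and for the macrophage, T cell and neutrophil sums. At day 21 the Il33 order was that of the macrophage and T cell sums, and not that of the fibroblast or neutrophil sums. Endothelium, dendritic cell and natural killer cell sums also had the Il33 order at both days. Such an order of 3 libraries was not particular to Il33. At day 21 the second UIR library was the lowest for 27 of the 49 members tested (55.1%, against 28.6% of all genes). The part of these other markers was not tested either.

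Il18, a cytokine matured by caspase 1 and made by tubule cells, was called at day 21 alone, with 5.71, 4.94 and 5.06 FPKM in UIR libraries, against 1.74, 2.54 and 1.72 FPKM in sham libraries (log2 fold 1.07 ± 0.16, limma adjusted p = 1.7e-05). At days 1 and 3 its UIR and sham libraries overlapped (0.18 and -0.09), and under median-ratio scaling it was lower at day 3 (-0.47, limma adjusted p = 0.017). Il1f9, which encodes interleukin 36 gamma, also passed at day 21 alone, with 2.83, 3.28 and 3.88 FPKM in UIR libraries, against 1.7, 1.2 and 1.49 FPKM in sham libraries (log2 fold 0.81 ± 0.19, limma adjusted p = 0.0011), but this was lost under median-ratio scaling (0.38, limma adjusted p = 0.099) and turned to -0.12 after quantile normalization. The day-21 call of Il18 was also lost after quantile normalization (0.18, limma adjusted p = 0.3). In the deposited values neither ligand overlapped between groups at day 21.

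Il11 encodes interleukin 11, a cytokine of stressed epithelium and fibroblasts that signals through Il11ra1 and Il6st. It was high early, with 6.45, 10.81 and 6.76 FPKM in UIR libraries, against 1.67, 1.83 and 1.2 FPKM in sham libraries at day 1 (log2 fold 1.79 ± 0.16, limma adjusted p = 1.7e-07). Il11 at day 3 had 1.68, 1.2 and 1.98 FPKM in UIR libraries, against 1.33, 1.31 and 1.18 FPKM in sham libraries, with overlap (log2 fold 0.19 ± 0.16, limma adjusted p = 0.29). Il11 at day 21 had 2.35, 2.69 and 2.28 FPKM in UIR libraries, against 0.73, 0.81 and 0.46 FPKM in sham libraries (log2 fold 1.05 ± 0.16, limma adjusted p = 1.7e-05). Its day-21 sham libraries were lower than those of day 1, and its UIR libraries stayed under 3 FPKM after day 1. Quantile normalization ended the day-21 call (0.14, limma adjusted p = 0.4). The day-3 value was called higher with TPM (0.46, limma adjusted p = 0.048) and lower after quantile normalization (-0.41, limma adjusted p = 0.022).

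Il6, the acute-phase cytokine, was above 1 FPKM in only 2 libraries and did not enter the main test. Il6 at day 1 had 2.56, 6.83 and 0.51 FPKM in UIR libraries, against 0.17, 0.06 and 0.12 FPKM in sham libraries, apart from sham but spread widely, and in the fit over all rows its log2 fold was 1.64 ± 0.37, limma adjusted p = 0.0019. It was lowest in the third UIR library, which also had the fewest neutrophil markers of its group. That library was the lowest of the 3 for 25 of the 49 members tested (51.0%), against 32.0% of all genes. Il6 at day 3 had 0.19, 0.1 and 0.15 FPKM in UIR libraries, against 0, 0 and 0 FPKM in sham libraries. Il6 at day 21 had 0.28, 0.45 and 0.99 FPKM in UIR libraries, against 0.06, 0 and 0 FPKM in sham libraries. At these days UIR libraries remained above sham libraries, at 0.99 FPKM or less, and neither difference was called.

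Il24, an interleukin 10 family cytokine of epithelium, was listed at 0 in all 9 sham libraries, so no fold is given. UIR libraries had 2.8, 4.68 and 2.18 FPKM at day 1 (limma adjusted p = 4.1e-08), 1.36, 1.48 and 1.97 FPKM at day 3 (limma adjusted p = 1.2e-06) and 0.23, 0 and 0.3 FPKM at day 21 (limma adjusted p = 0.21). Only the UIR libraries of days 1 and 3 brought Il24 past the filter, which favours its calls at these days. The transcript was thus seen in every UIR library of days 1 and 3 and in 2 of the 3 of day 21, where a pseudocount of 0.1 gave a call (limma adjusted p = 0.013). Its relatives Il10, which dampens inflammation, and Il19 stayed under 1 FPKM. Il10 had 0.64, 0.3 and 0.15 FPKM in UIR libraries, against 0.05, 0 and 0 FPKM in sham libraries at day 1, and Il19 had 0.43, 0.43 and 0.24 FPKM in UIR libraries, against 0, 0 and 0 FPKM in sham libraries, and both were higher in the fit over all rows (limma adjusted p = 0.001 and 5.6e-07).

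Il34 encodes interleukin 34, the second ligand of the macrophage receptor CSF1R, and was the most abundant ligand at day 1. The groups then overlapped, with 84.15, 74.2 and 85.02 FPKM in UIR libraries, against 112.33, 54.2 and 82.85 FPKM in sham libraries (log2 fold 0.02 ± 0.30, limma adjusted p = 0.96). Il34 at day 3 had 37.82, 36.97 and 42.29 FPKM in UIR libraries, against 12.56, 10.92 and 20.13 FPKM in sham libraries (log2 fold 1.41 ± 0.30, limma adjusted p = 0.00043). Il34 at day 21 had 41.21, 48.38 and 42.09 FPKM in UIR libraries, against 18.66, 7.46 and 18.7 FPKM in sham libraries (log2 fold 1.59 ± 0.30, limma adjusted p = 0.00011). UIR levels were higher at day 1 than later, and so, by more, were sham levels. Set against the sham libraries of days 3 and 21, the day-1 UIR libraries were higher (2.45, limma adjusted p = 3.1e-07).

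Il16, a ligand of CD4 that attracts T cells, had 2.82, 2.02 and 0.77 FPKM in UIR libraries, against 0.49, 0.47 and 0.48 FPKM in sham libraries at day 3 (log2 fold 0.89 ± 0.19, limma adjusted p = 0.00057). Il16 at day 21 had 9.22, 7.72 and 10.76 FPKM in UIR libraries, against 0.77, 0.72 and 0.59 FPKM in sham libraries (log2 fold 2.59 ± 0.19, limma adjusted p = 3.5e-09). Its libraries of day 1 ranged from 0.72 to 0.74 FPKM in UIR and from 0.58 to 0.7 FPKM in sham libraries and were not called (0.08). The day-3 value of the third UIR library, 0.77 FPKM, was the lowest of its group, as were its T cell markers (8.78 FPKM), whose part was not tested. Quantile normalization ended the day-3 call (0.31, limma adjusted p = 0.12). Il7, the survival factor of lymphocytes, ranged from 1.5 to 2.32 FPKM in UIR libraries over the 3 days, against 0.33 to 0.81 FPKM in sham libraries, and was higher at each day (0.92, 0.86 and 0.92, limma adjusted p of 3.5e-05 or lower). After quantile normalization the later calls of Il7 were lost (0.28 and 0.04, limma adjusted p = 0.095 and 0.81).

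Il15, which sustains natural killer and memory T cells, went the other way. At day 1 the groups overlapped, with 4.29, 3.73 and 3.45 FPKM in UIR libraries, against 3.21, 5.73 and 3.53 FPKM in sham libraries (log2 fold -0.07 ± 0.15, limma adjusted p = 0.72). Il15 at day 3 had 3.95, 4.43 and 4.1 FPKM in UIR libraries, against 9.63, 10.42 and 10.23 FPKM in sham libraries (log2 fold -1.11 ± 0.15, limma adjusted p = 4.8e-06). Il15 at day 21 had 5.83, 5.97 and 4.8 FPKM in UIR libraries, against 9.3, 9.34 and 7.17 FPKM in sham libraries (log2 fold -0.55 ± 0.15, limma adjusted p = 0.0027). At both later days every UIR library lay under every sham library. The sham libraries of day 1 were mostly as low as UIR libraries, and against the later sham libraries the day-1 UIR libraries were lower too (-1.10, limma adjusted p = 1.2e-06).

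Of the remaining tested ligands, Il12b, the shared subunit of interleukins 12 and 23, ranged from 1.17 to 2.23 FPKM in UIR libraries at day 21, against 0.05 to 0.1 FPKM in sham libraries (log2 fold 1.31 ± 0.12, limma adjusted p = 2.7e-08), and did not exceed 0.19 FPKM elsewhere. It passed the filter through these UIR libraries alone, which favours its day-21 call. Il17d, an interleukin 17 relative made outside the immune system, was higher at days 1 and 21 (0.71 and 0.97) and not called at day 3 (0.29), with no library above 1.77 FPKM. The day-21 call was lost after quantile normalization (0.18, limma adjusted p = 0.26), and day 3 was called with a pseudocount of 0.1, TPM, library weights or a fit of its groups alone (limma adjusted p from 0.01 to 0.02). In all, UIR and sham libraries of both genes did not overlap on the days they were called.

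A further 14 ligands did not reach the level for the test, among them Il6, Il10 and Il19 above. The others stayed at or under 1.2 FPKM in every library, and Il2, Il4, Il5, Il12a, Il21 and Il25 at or under 0.3 FPKM. In the fit over all rows, 7 of the 14 were higher at day 21, near the 55.2% of all genes in that fit. Among the 7 was Il2, the T cell growth factor, with 0.27, 0.24 and 0.3 FPKM in UIR libraries, against 0, 0 and 0 FPKM in sham libraries (difference 0.35 ± 0.03, limma adjusted p = 1.5e-08, with no fold given). Il23a, the specific subunit of interleukin 23, had 0.9, 0.67 and 1.2 FPKM in UIR libraries, against 0.14, 0 and 0.09 FPKM in sham libraries (0.83 ± 0.12, limma adjusted p = 1.3e-05). Il27 was higher at days 3 and 21, Il17f was lower at day 3 with overlapping libraries, and Il4 passed narrowly at day 21 at a limma adjusted p of 0.05 with 0.11 FPKM at most. Il25, Il12a and Il17c were called at no day.

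Of the soluble inhibitors of the interleukin 1 family, Il1rn and Il18bp were tested and were higher at every day. Against sham libraries of the same day, the ligands Il1a, Il1b and Il18 were called at day 21 alone. Against the later sham libraries, Il1b was higher at day 1 too (1.42, limma adjusted p = 0.00022). Il1rn, the secreted antagonist of the interleukin 1 receptor, had 3.44, 8.47 and 9.81 FPKM in UIR libraries, against 0.63, 0.47 and 0.65 FPKM in sham libraries at day 1 (log2 fold 2.28 ± 0.27, limma adjusted p = 3e-06). Il1rn at day 3 had 22.15, 22.72 and 32.29 FPKM in UIR libraries, against 0.09, 0.08 and 0.13 FPKM in sham libraries (log2 fold 4.58 ± 0.27, limma adjusted p = 4.7e-10), the largest increase of any member at that day on this scale. Il1rn at day 21 had 11.08, 9.7 and 19.35 FPKM in UIR libraries, against 0.03, 0.14 and 0.08 FPKM in sham libraries (log2 fold 3.67 ± 0.27, limma adjusted p = 3.5e-09). No UIR library overlapped sham at any day. Within each library, Il1rn stood at 0.717 to 3.248 times the Il1b level in UIR at day 1, 9.346 to 15.231 times at day 3 and 0.526 to 0.715 times at day 21, against 0.031 to 0.25 times in the 9 sham libraries.

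Il18bp, the secreted trap of interleukin 18, had 6.59, 5.91 and 6.31 FPKM in UIR libraries, against 4.37, 4.49 and 3.93 FPKM in sham libraries at day 1, a small increase (log2 fold 0.47 ± 0.19, limma adjusted p = 0.044). Without any 1 of the 6 libraries it missed the threshold (0.42 to 0.50, limma adjusted p from 0.062 to 0.12), as it did with a replicate block (0.055) and in the fit over all rows (0.061). Il18bp at day 3 had 11.13, 7.99 and 4.93 FPKM in UIR libraries, against 2.45, 2.77 and 2.37 FPKM in sham libraries (log2 fold 1.29 ± 0.19, limma adjusted p = 1.2e-05). Il18bp at day 21 had 14.21, 12.12 and 18.23 FPKM in UIR libraries, against 2.4, 2.68 and 2.95 FPKM in sham libraries (log2 fold 2.09 ± 0.19, limma adjusted p = 3.6e-08). UIR libraries were above sham libraries on all days. Its level was 2.201 to 4.281 times that of Il18 in UIR libraries of day 3, against 0.677 to 1.338 times in sham libraries. Il1f5, the interleukin 36 receptor antagonist, and Il22ra2, the soluble trap of interleukin 22, stayed at or under 0.52 FPKM. In the fit over all rows Il1f5 was higher at day 21 (0.26 ± 0.10, limma adjusted p = 0.034), with overlapping libraries.

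All 7 tested receptors of the interleukin 1 family were higher at days 3 and 21, and 6 of them at day 1, all but Il1rl1. The calls of Il1r2 at day 3 and of Il1rap at day 21 were lost under other scalings. The plot of these receptors and inhibitors gives every library. Over all 32 tested receptors, 10 were higher and 4 lower at day 1, 26 and 1 at day 3, and 27 and 2 at day 21. All-gene shares called higher at these days were 28.5%, 57.6% and 60.7%, so the day-1 count of receptors called higher was near the background. All-gene shares called lower were 31.1%, 17.9% and 20.1%.

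**Figure D3:**
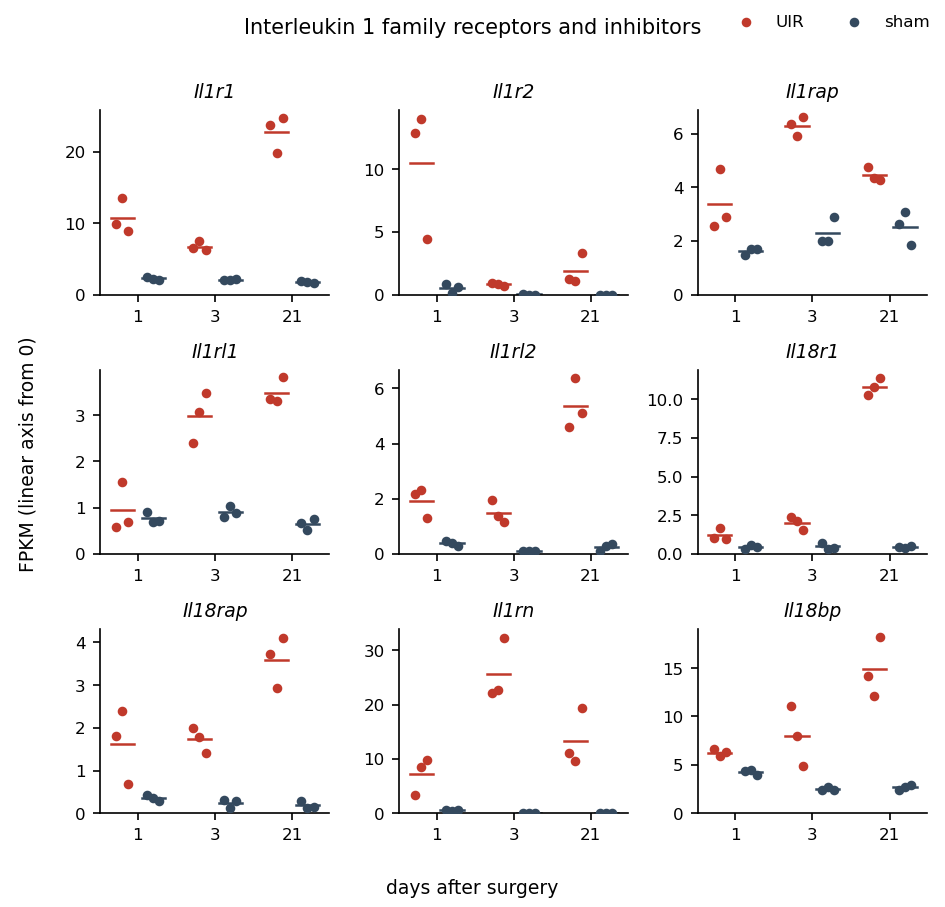
FPKM (linear axes from 0) of 7 interleukin 1 family receptors and of the inhibitors Il1rn and Il18bp in every library, UIR (red) left of sham (dark) at days 1, 3 and 21, bars at the mean of 3 libraries. Il1r2 is highest in UIR libraries of day 1 (4.45 to 14.01 FPKM), Il1r1 in those of day 21 (19.79 to 24.67 FPKM), and Il1rn in those of day 3 (22.15 to 32.29 FPKM).

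Il1r1, the signalling receptor of interleukin 1, had 9.82, 13.55 and 8.93 FPKM in UIR libraries, against 2.46, 2.22 and 2.1 FPKM in sham libraries at day 1 (log2 fold 1.83 ± 0.12, limma adjusted p = 7.5e-09). Il1r1 at day 3 had 6.46, 7.44 and 6.17 FPKM in UIR libraries, against 2.08, 2.0 and 2.23 FPKM in sham libraries (log2 fold 1.31 ± 0.12, limma adjusted p = 9.9e-08). Il1r1 at day 21 had 23.7, 19.79 and 24.67 FPKM in UIR libraries, against 1.9, 1.81 and 1.66 FPKM in sham libraries (log2 fold 3.08 ± 0.12, limma adjusted p = 9.1e-12). The 9 sham libraries stayed between 1.66 and 2.46 FPKM, under every UIR library.

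Il1r2, a decoy receptor that binds interleukin 1 without signalling, followed another course. Il1r2 at day 1 had 12.93, 14.01 and 4.45 FPKM in UIR libraries, against 0.86, 0.09 and 0.59 FPKM in sham libraries (log2 fold 2.82 ± 0.32, limma adjusted p = 2e-06). Il1r2 at day 3 had 0.95, 0.84 and 0.7 FPKM in UIR libraries, against 0.05, 0 and 0 FPKM in sham libraries (log2 fold 0.85 ± 0.32, limma adjusted p = 0.026). The call was lost without the first or second UIR or the second or the third sham library (0.80 to 0.84, limma adjusted p from 0.055 to 0.066). It was also lost under median-ratio scaling (0.72, limma adjusted p = 0.063), quantile normalization (0.56, limma adjusted p = 0.13) and a pseudocount of 5 (0.22, limma adjusted p = 0.3). Il1r2 at day 21 in UIR libraries had 1.27, 1.05 and 3.3 FPKM while all 3 sham libraries were listed at 0 (limma adjusted p = 0.00065). Decoy and signalling receptor were thus near each other in early UIR libraries, with Il1r2 at 1.317, 1.034 and 0.498 times the Il1r1 level at day 1, against 0.35, 0.041 and 0.281 times in sham libraries. At day 21 these ratios were 0.054, 0.053 and 0.134 in UIR libraries. The libraries with less Il1r2 at day 1, the third UIR and the second sham library, were also those with the fewest neutrophil markers in their groups, whose part in the result was not tested. Low values there were not particular to Il1r2. The third UIR library was the lowest of its group for 25 of the 49 members tested (51.0%, against 32.0% of all genes). The second sham library was so for 19 (38.8%, against 31.1%).

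Il1rap, the shared signalling partner of these receptors, had 6.37, 5.91 and 6.62 FPKM in UIR libraries, against 2.01, 1.99 and 2.89 FPKM in sham libraries at day 3 (log2 fold 1.16 ± 0.16, limma adjusted p = 8.1e-06). It was higher at days 1 and 21 too (0.71 and 0.65), without overlap, although the day-21 call was lost under median-ratio scaling (0.17, limma adjusted p = 0.33) and turned to -0.25 after quantile normalization. Il1rl1, the interleukin 33 receptor ST2, was not called at day 1 (0.10). It had 2.4, 3.08 and 3.48 FPKM in UIR libraries, against 0.79, 1.04 and 0.88 FPKM in sham libraries at day 3 (log2 fold 1.06 ± 0.15, limma adjusted p = 9.3e-06). Il1rl1 at day 21 had 3.35, 3.3 and 3.82 FPKM in UIR libraries, against 0.66, 0.51 and 0.75 FPKM in sham libraries (log2 fold 1.45 ± 0.15, limma adjusted p = 1.9e-07). Il1rl1 and its ligand Il33 were therefore both not called at day 1 and higher at both later days.

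Il1rl2, the receptor of the interleukin 36 cytokines, had 2.17, 2.31 and 1.3 FPKM in UIR libraries, against 0.47, 0.39 and 0.28 FPKM in sham libraries at day 1 (log2 fold 1.07 ± 0.15, limma adjusted p = 1.6e-05). Il1rl2 at day 3 had 1.95, 1.36 and 1.17 FPKM in UIR libraries, against 0.1, 0.1 and 0.12 FPKM in sham libraries (log2 fold 1.16 ± 0.15, limma adjusted p = 3.2e-06). Il1rl2 at day 21 had 4.59, 6.37 and 5.1 FPKM in UIR libraries, against 0.1, 0.27 and 0.36 FPKM in sham libraries (log2 fold 2.35 ± 0.15, limma adjusted p = 6e-10). Receptor and ligand Il1f6 were higher at all 3 days, and both sat under 0.5 FPKM in sham libraries of days 3 and 21.

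Il18r1, the binding chain for interleukin 18, had 1.05, 1.68 and 0.97 FPKM in UIR libraries, against 0.34, 0.58 and 0.42 FPKM in sham libraries at day 1 (log2 fold 0.62 ± 0.14, limma adjusted p = 0.0011). Il18r1 at day 3 had 2.39, 2.12 and 1.52 FPKM in UIR libraries, against 0.72, 0.33 and 0.4 FPKM in sham libraries (log2 fold 1.02 ± 0.14, limma adjusted p = 4.8e-06). Il18r1 at day 21 had 10.26, 10.76 and 11.35 FPKM in UIR libraries, against 0.46, 0.4 and 0.52 FPKM in sham libraries (log2 fold 3.01 ± 0.14, limma adjusted p = 2.1e-11). Both later days and day 1 were without overlap. Its partner Il18rap had 1.8, 2.4 and 0.69 FPKM in UIR libraries, against 0.42, 0.35 and 0.3 FPKM in sham libraries at day 1 (log2 fold 0.90 ± 0.19, limma adjusted p = 0.00071). Il18rap at day 3 had 2.0, 1.79 and 1.41 FPKM in UIR libraries, against 0.32, 0.12 and 0.28 FPKM in sham libraries (log2 fold 1.14 ± 0.19, limma adjusted p = 4.8e-05). Il18rap at day 21 had 3.72, 2.92 and 4.11 FPKM in UIR libraries, against 0.3, 0.13 and 0.14 FPKM in sham libraries (log2 fold 1.94 ± 0.19, limma adjusted p = 9.1e-08). Both chains were higher in UIR libraries at all 3 days, before their ligand Il18 was called at day 21.

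The chains Il2rg, Il2rb, Il2ra, Il7r, Il21r, Il10ra and Il27ra were not called at day 1 and were higher at day 21. Il2rg, the common gamma chain shared by receptors of interleukins 2, 4, 7, 9, 15 and 21, had 2.31, 2.63 and 2.63 FPKM in UIR libraries, against 2.55, 3.1 and 2.53 FPKM in sham libraries at day 1 (log2 fold -0.08 ± 0.20, limma adjusted p = 0.76). Il2rg at day 3 had 18.89, 14.06 and 8.37 FPKM in UIR libraries, against 3.09, 2.84 and 2.77 FPKM in sham libraries (log2 fold 1.86 ± 0.20, limma adjusted p = 3.7e-07). Il2rg at day 21 had 75.82, 55.37 and 81.51 FPKM in UIR libraries, against 3.05, 3.42 and 3.38 FPKM in sham libraries (log2 fold 4.05 ± 0.20, limma adjusted p = 4e-11). The day-21 fold was the largest of any member on the log2(FPKM + 1) scale, but with a pseudocount of 0.1 Il2rg (4.37) came after Il1f6 (6.43), Il1rn (6.18) and Il7r (5.66) among others. The third UIR library of day 3 was the lowest of its group.

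**Figure D4:**
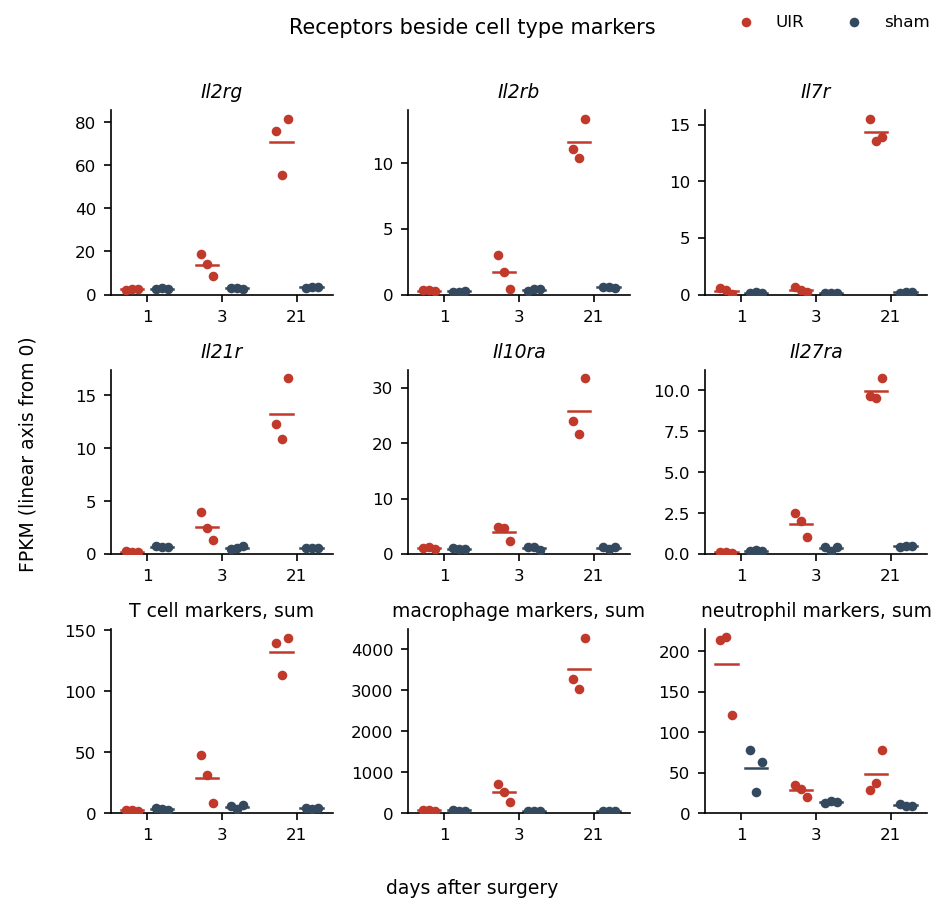
FPKM (linear axes from 0) of 6 receptor chains above the summed FPKM of T cell (7 genes), macrophage (8) and neutrophil (8) markers in every library, UIR (red) left of sham (dark) at days 1, 3 and 21, bars at the mean of 3 libraries. The receptor chains and the T cell and macrophage sums are highest in UIR libraries of day 21, and neutrophil sums in UIR libraries of day 1.

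Il2rb, the beta chain for interleukins 2 and 15, had 3.03, 1.69 and 0.43 FPKM in UIR libraries, against 0.26, 0.4 and 0.43 FPKM in sham libraries at day 3 (log2 fold 0.87 ± 0.24, limma adjusted p = 0.0035). Il2rb at day 21 had 11.11, 10.4 and 13.38 FPKM in UIR libraries, against 0.61, 0.57 and 0.53 FPKM in sham libraries (log2 fold 3.00 ± 0.24, limma adjusted p = 7.7e-09). At day 3 the third UIR library lay within the sham range, and the call was lost after quantile normalization (0.33, limma adjusted p = 0.17) and in a fit of the day-3 groups alone (limma adjusted p = 0.056). Il2ra, the high-affinity alpha chain of activated T cells, had 2.99, 2.87 and 3.3 FPKM in UIR libraries, against 0.61, 0.51 and 0.5 FPKM in sham libraries at day 21 (log2 fold 1.40 ± 0.09, limma adjusted p = 1e-09). Its day-3 value, called higher as deposited (0.23), was called lower after quantile normalization (-0.30, limma adjusted p = 0.013). That day-3 call was lost without the first or the third UIR or the second or the third sham library (0.17 to 0.24, limma adjusted p from 0.053 to 0.15). T cell markers in the UIR libraries of day 3 were 47.77, 31.39 and 8.78 FPKM in the same order of libraries as Il2rb, and their part was not tested.

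Il7r, the interleukin 7 receptor of naive and memory lymphocytes, rose late. Il7r at day 3 had 0.7, 0.39 and 0.24 FPKM in UIR libraries, against 0.16, 0.18 and 0.18 FPKM in sham libraries, short of the threshold (log2 fold 0.29 ± 0.13, limma adjusted p = 0.059), which it passed without the third UIR library (0.39, limma adjusted p = 0.019), with TPM (0.58) or with library weights (0.28). Il7r at day 21 had 15.49, 13.55 and 13.93 FPKM in UIR libraries, against 0.14, 0.19 and 0.23 FPKM in sham libraries (log2 fold 3.69 ± 0.13, limma adjusted p = 3.5e-12). All its UIR libraries of day 21 were at 13.55 FPKM or more, while no other library exceeded 0.7 FPKM. Il7r thus passed the filter through that group alone, which favours its day-21 call. Il21r, the interleukin 21 receptor, had 0.25, 0.22 and 0.14 FPKM in UIR libraries, against 0.73, 0.61 and 0.64 FPKM in sham libraries at day 1 (log2 fold -0.47 ± 0.20, limma adjusted p = 0.059). Il21r at day 3 had 3.97, 2.43 and 1.28 FPKM in UIR libraries, against 0.47, 0.57 and 0.76 FPKM in sham libraries (log2 fold 1.09 ± 0.20, limma adjusted p = 0.00014). Il21r at day 21 had 12.28, 10.86 and 16.59 FPKM in UIR libraries, against 0.53, 0.6 and 0.56 FPKM in sham libraries (log2 fold 3.17 ± 0.20, limma adjusted p = 6.2e-10). Every UIR value of Il21r lay under the sham values at day 1 and above them at both later days. The day-1 difference was called with a pseudocount of 0.1, TPM, median-ratio scaling or a fit of its groups alone (limma adjusted p from 0.0012 to 0.046).

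Il10ra, the binding chain for interleukin 10, had 4.88, 4.62 and 2.26 FPKM in UIR libraries, against 1.25, 1.22 and 0.71 FPKM in sham libraries at day 3 (log2 fold 1.22 ± 0.20, limma adjusted p = 3.4e-05). Il10ra at day 21 had 23.97, 21.66 and 31.73 FPKM in UIR libraries, against 1.24, 0.9 and 1.22 FPKM in sham libraries (log2 fold 3.65 ± 0.20, limma adjusted p = 1.1e-10), after no call at day 1 (0.09). The third UIR library of day 3 again had the lowest value. Il27ra, the interleukin 27 receptor, had 2.5, 2.02 and 1.02 FPKM in UIR libraries, against 0.43, 0.2 and 0.41 FPKM in sham libraries at day 3 (log2 fold 1.05 ± 0.15, limma adjusted p = 7.7e-06). Il27ra at day 21 had 9.65, 9.53 and 10.73 FPKM in UIR libraries, against 0.45, 0.49 and 0.47 FPKM in sham libraries (log2 fold 2.90 ± 0.15, limma adjusted p = 5.7e-11). Its 3 UIR libraries of each later day, like those of Il10ra, lay above all sham libraries. Il12rb1 and Il12rb2, the chains of the interleukin 12 receptor, ranged from 1.41 to 2.14 FPKM in UIR libraries at day 21, against 0.07 to 0.51 FPKM in sham libraries (1.34 and 1.01, limma adjusted p of 3.1e-06 or lower). Their day-3 increases (0.59 and 0.33) were called, but that of Il12rb2 turned to -0.14 after quantile normalization. That of Il12rb1 was lost there (0.19, limma adjusted p = 0.3), as was the day-21 call of Il12rb2 (0.16, limma adjusted p = 0.27). The day-3 call of Il12rb2 was also lost without the first UIR or the first or second sham library (0.20 to 0.30, limma adjusted p from 0.092 to 0.19).

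Il4ra and Il13ra1, which form a receptor for interleukins 4 and 13, rose at day 1. Il4ra, which binds interleukin 4 and also serves interleukin 13, had 24.25, 23.44 and 17.38 FPKM in UIR libraries, against 10.53, 6.89 and 9.72 FPKM in sham libraries at day 1 (log2 fold 1.18 ± 0.17, limma adjusted p = 1.6e-05). Il4ra at day 3 had 13.59, 11.26 and 9.1 FPKM in UIR libraries, against 3.97, 4.51 and 3.98 FPKM in sham libraries (log2 fold 1.24 ± 0.17, limma adjusted p = 4.6e-06). Il4ra at day 21 had 20.25, 20.62 and 27.38 FPKM in UIR libraries, against 4.42, 4.07 and 4.62 FPKM in sham libraries (log2 fold 2.13 ± 0.17, limma adjusted p = 6.1e-09). All 9 UIR libraries of Il4ra lay above the sham libraries of their day. Its partner Il13ra1 had 61.88, 74.54 and 64.83 FPKM in UIR libraries, against 15.5, 16.52 and 16.3 FPKM in sham libraries at day 1 (log2 fold 1.99 ± 0.10, limma adjusted p = 4.9e-10). Il13ra1 at day 3 had 26.18, 24.66 and 26.89 FPKM in UIR libraries, against 23.34, 21.23 and 27.72 FPKM in sham libraries (log2 fold 0.11 ± 0.10, limma adjusted p = 0.34). Il13ra1 at day 21 had 39.27, 31.48 and 35.66 FPKM in UIR libraries, against 23.91, 22.02 and 24.07 FPKM in sham libraries (log2 fold 0.58 ± 0.10, limma adjusted p = 5.9e-05). Il13ra1 was the most abundant receptor in UIR libraries of day 1, overlapped sham at day 3, and its day-21 increase turned to -0.02 under median-ratio scaling. Its day-3 value was called higher with TPM (0.39, limma adjusted p = 0.0055) and lower under median-ratio scaling (-0.41, limma adjusted p = 0.0028). Il4 itself did not exceed 0.11 FPKM and Il13 was above 0 in fewer than 3 libraries.

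Il15ra, which presents interleukin 15 to neighbouring cells, had 8.79, 5.78 and 6.25 FPKM in UIR libraries, against 11.0, 10.96 and 13.74 FPKM in sham libraries at day 1 (log2 fold -0.71 ± 0.15, limma adjusted p = 0.00073). Il15ra at day 3 had 6.49, 6.43 and 6.4 FPKM in UIR libraries, against 7.05, 8.51 and 8.88 FPKM in sham libraries (log2 fold -0.29 ± 0.15, limma adjusted p = 0.09). Il15ra at day 21 had 8.16, 9.6 and 8.29 FPKM in UIR libraries, against 6.17, 8.66 and 5.66 FPKM in sham libraries (log2 fold 0.32 ± 0.15, limma adjusted p = 0.06), and without the second sham library it was called there (0.48, limma adjusted p = 0.0072). With all libraries and as deposited only the day-1 difference was called, while day 3 was lower under median-ratio scaling (-0.76, limma adjusted p = 0.00038) and quantile normalization (-0.87, limma adjusted p = 5.2e-05). At day 1, with the sham libraries of both later days as control, it was -0.10 (limma adjusted p = 0.51). The sham libraries of day 1 were the highest of all groups for this gene.

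In the interleukin 6 family, Il6st, the shared signalling chain gp130, was called at the later days. Il6st at day 1 had 35.49, 38.37 and 24.92 FPKM in UIR libraries, against 30.11, 30.06 and 23.26 FPKM in sham libraries (log2 fold 0.22 ± 0.15, limma adjusted p = 0.23). Il6st at day 3 had 55.47, 47.5 and 45.25 FPKM in UIR libraries, against 18.87, 14.21 and 21.09 FPKM in sham libraries (log2 fold 1.42 ± 0.15, limma adjusted p = 4.7e-07). Il6st at day 21 had 67.48, 66.71 and 69.64 FPKM in UIR libraries, against 27.27, 25.82 and 25.98 FPKM in sham libraries (log2 fold 1.33 ± 0.15, limma adjusted p = 6.7e-07). The later groups were apart and the day-1 groups overlapped, and without the third UIR library the day-1 value was called (0.41, limma adjusted p = 0.022), as it was against the later sham libraries (0.56, limma adjusted p = 0.0014). Il6ra, the binding chain for interleukin 6, rose at every day. It had 4.56, 5.51 and 3.9 FPKM in UIR libraries, against 1.96, 1.57 and 1.98 FPKM in sham libraries at day 1 (log2 fold 0.99 ± 0.15, limma adjusted p = 4e-05). Il6ra at day 3 had 3.5, 2.49 and 2.08 FPKM in UIR libraries, against 0.71, 0.53 and 0.39 FPKM in sham libraries (log2 fold 1.24 ± 0.15, limma adjusted p = 1.8e-06). Il6ra at day 21 had 8.87, 10.51 and 12.58 FPKM in UIR libraries, against 0.87, 1.01 and 0.7 FPKM in sham libraries (log2 fold 2.64 ± 0.15, limma adjusted p = 2.2e-10). Every UIR library of Il6ra lay above the sham libraries of its day.

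Il11ra1, the binding chain for interleukin 11, was the 1 member lower at all 3 days, as were 9.74% of all genes. Il11ra1 at day 1 had 26.51, 18.89 and 18.43 FPKM in UIR libraries, against 24.87, 30.06 and 25.13 FPKM in sham libraries, with overlap (log2 fold -0.33 ± 0.12, limma adjusted p = 0.033), and median-ratio scaling ended the call (-0.28, limma adjusted p = 0.086). Il11ra1 at day 3 had 23.03, 21.54 and 18.08 FPKM in UIR libraries, against 43.99, 43.39 and 37.94 FPKM in sham libraries (log2 fold -0.97 ± 0.12, limma adjusted p = 3e-06). Il11ra1 at day 21 had 31.88, 33.37 and 32.66 FPKM in UIR libraries, against 42.5, 39.15 and 44.16 FPKM in sham libraries (log2 fold -0.35 ± 0.12, limma adjusted p = 0.017). The day-3 and day-21 groups were apart, but at day 21 TPM values gave -0.16 (limma adjusted p = 0.23) and the call was lost without the third sham library (-0.31, limma adjusted p = 0.057). At day 1 it was lost without the second or the third UIR or the second sham library (-0.26 to -0.24, limma adjusted p from 0.13 to 0.14). Its near-identical copy Il11ra2 was at or under 0.51 FPKM, and the division of reads between them is uncertain.

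The interleukin 17 receptor chains differed in course, as the plot of receptors by day shows for Il17rb and Il17rc. Il17ra, the chain shared by the family, was called at no day, with 15.66, 14.65 and 13.53 FPKM in UIR libraries, against 13.85, 11.04 and 12.4 FPKM in sham libraries at day 1 (log2 fold 0.22 ± 0.10, limma adjusted p = 0.072) and log2 folds of 0.13 and 0.15 later, which turned to -0.36 and -0.42 under median-ratio scaling. Under that scaling both were called lower (limma adjusted p = 0.01 and 0.0031), as after quantile normalization (-0.34 and -0.39, limma adjusted p = 0.013 and 0.0051). With TPM the later values were called higher (0.41 and 0.35, limma adjusted p = 0.0027 and 0.0087). Il17rb, the receptor of interleukin 25, fell at day 1, with 1.55, 1.07 and 0.95 FPKM in UIR libraries, against 5.1, 6.15 and 5.23 FPKM in sham libraries (log2 fold -1.57 ± 0.14, limma adjusted p = 1.7e-07). It rose at day 3, with 14.68, 17.78 and 16.83 FPKM in UIR libraries, against 4.62, 3.79 and 5.32 FPKM in sham libraries (log2 fold 1.65 ± 0.14, limma adjusted p = 3.3e-08). Il17rb at day 21 had 6.8, 9.42 and 6.58 FPKM in UIR libraries, against 5.43, 4.7 and 4.38 FPKM in sham libraries (log2 fold 0.55 ± 0.14, limma adjusted p = 0.0022). Groups did not overlap at any day, the sham libraries stayed between 3.79 and 6.15 FPKM, and the day-21 increase was lost under median-ratio scaling (0.02, limma adjusted p = 0.93) and turned to -0.22 after quantile normalization.

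**Figure D5:**
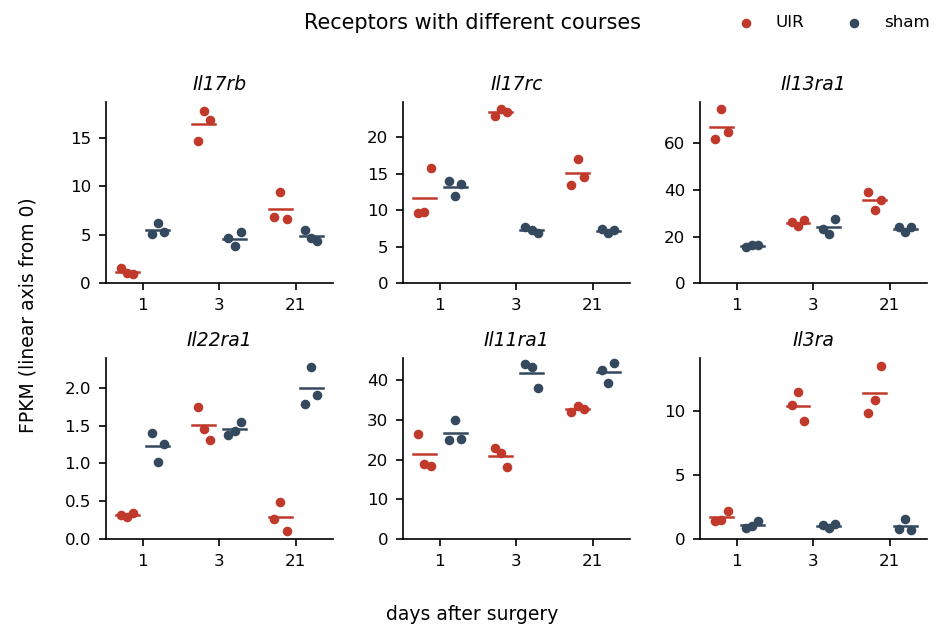
FPKM (linear axes from 0) of 6 receptors in every library, UIR (red) left of sham (dark) at days 1, 3 and 21, bars at the mean of 3 libraries. Il17rb lies under sham at day 1 and above it at day 3, Il22ra1 lies under sham at days 1 and 21 and among the sham values at day 3, and Il17rc has its highest sham values at day 1 (12.02 to 13.96 FPKM).

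Il17rc, the partner of Il17ra for interleukins 17A and 17F, had 9.58, 9.74 and 15.8 FPKM in UIR libraries, against 13.96, 12.02 and 13.56 FPKM in sham libraries at day 1 (log2 fold -0.19 ± 0.14, limma adjusted p = 0.25). Il17rc at day 3 had 22.89, 23.94 and 23.46 FPKM in UIR libraries, against 7.77, 7.23 and 6.95 FPKM in sham libraries (log2 fold 1.56 ± 0.14, limma adjusted p = 4.7e-08). Il17rc at day 21 had 13.5, 17.1 and 14.58 FPKM in UIR libraries, against 7.39, 6.84 and 7.35 FPKM in sham libraries (log2 fold 0.97 ± 0.14, limma adjusted p = 7.9e-06). The groups overlapped at day 1, where the third UIR library was above all sham libraries and the other 2 were under them, and against the later sham libraries the sign turned to 0.59 (limma adjusted p = 0.00035). Without the third UIR library Il17rc was lower at day 1 (-0.41, limma adjusted p = 0.0015). Il17re, the receptor of interleukin 17C on epithelium, had 9.55, 10.87 and 11.09 FPKM in UIR libraries, against 4.19, 4.42 and 4.14 FPKM in sham libraries at day 3 (log2 fold 1.13 ± 0.17, limma adjusted p = 2.1e-05). Il17re at day 21 had 15.17, 16.42 and 14.65 FPKM in UIR libraries, against 2.46, 3.57 and 3.26 FPKM in sham libraries (log2 fold 2.01 ± 0.17, limma adjusted p = 2.2e-08). The day-1 groups of Il17re overlapped (0.32), with a call without the first UIR (0.46, limma adjusted p = 0.04) or second sham library (0.50, limma adjusted p = 0.02), and the later ones did not. Il17rd, a related chain that modulates growth factor signals, had 4.78, 5.01 and 5.14 FPKM in UIR libraries, against 1.18, 0.96 and 1.17 FPKM in sham libraries at day 3 (log2 fold 1.51 ± 0.12, limma adjusted p = 1.3e-08). Il17rd at day 21 had 7.29, 7.77 and 7.05 FPKM in UIR libraries, against 1.41, 1.68 and 1.07 FPKM in sham libraries (log2 fold 1.82 ± 0.12, limma adjusted p = 9.2e-10). It too was not called at day 1 (0.15) and lay fully above sham later, and against the later sham libraries its day-1 UIR libraries were higher (0.50, limma adjusted p = 0.00042).

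Of the interleukin 10 family receptors, Il10rb, the widely expressed shared chain, had 35.86, 36.86 and 30.21 FPKM in UIR libraries, against 24.41, 26.62 and 22.69 FPKM in sham libraries at day 3 (log2 fold 0.46 ± 0.10, limma adjusted p = 0.00079). Il10rb at day 21 had 60.65, 55.53 and 64.14 FPKM in UIR libraries, against 25.3, 30.58 and 23.56 FPKM in sham libraries (log2 fold 1.16 ± 0.10, limma adjusted p = 3.5e-08). Both days were without overlap, and the day-3 increase turned to -0.05 under median-ratio scaling. Il20rb, the shared chain for interleukins 19, 20 and 24, had 4.04, 2.28 and 3.48 FPKM in UIR libraries, against 1.62, 0.82 and 1.49 FPKM in sham libraries at day 1 (log2 fold 0.88 ± 0.16, limma adjusted p = 0.00014). Il20rb at day 21 had 2.65, 2.66 and 2.68 FPKM in UIR libraries, against 0.39, 0.26 and 0.18 FPKM in sham libraries (log2 fold 1.52 ± 0.16, limma adjusted p = 1.5e-07), and it was also higher at day 3 (0.78). Its UIR libraries lay above sham on all days, and quantile normalization ended the day-3 call (0.22, limma adjusted p = 0.24). Il20ra, its partner for interleukins 19, 20 and 24, was at or under 0.09 FPKM in every library.

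Il22ra1, the epithelial chain for interleukins 22, 20 and 24, had 0.32, 0.29 and 0.34 FPKM in UIR libraries, against 1.4, 1.02 and 1.26 FPKM in sham libraries at day 1 (log2 fold -0.76 ± 0.11, limma adjusted p = 2.8e-05). Il22ra1 at day 3 had 1.74, 1.46 and 1.31 FPKM in UIR libraries, against 1.37, 1.43 and 1.55 FPKM in sham libraries, with overlap (log2 fold 0.03 ± 0.11, limma adjusted p = 0.83). Il22ra1 at day 21 had 0.26, 0.49 and 0.11 FPKM in UIR libraries, against 1.79, 2.28 and 1.9 FPKM in sham libraries (log2 fold -1.22 ± 0.11, limma adjusted p = 4.2e-08). It was thus lower at the first and last day. Its day-3 value was called lower under median-ratio scaling (-0.29, limma adjusted p = 0.022) and after quantile normalization (-0.57, limma adjusted p = 3.4e-05). Proximal tubule markers were low in UIR libraries of day 21 (142.58, 231.82 and 28.74 FPKM), against 3771.63, 3391.34 and 3787.84 FPKM in sham libraries. They were low at day 3 too (254.2, 282.4 and 162.47 FPKM), where Il22ra1 was not called. At day 1, where it was lower, UIR sums (1415.52, 1093.72 and 574.74 FPKM) overlapped those of sham. Of the 4 genes summed, 1 was called lower and 0 higher at day 1, with a median of -0.68 beside -0.03 for all genes. Cubn (13.87, 13.66 and 4.91 FPKM) lay under sham (19.45, 28.01 and 24.05 FPKM), while Slc34a1, Slc5a2 and Lrp2 overlapped. Collecting duct markers were also lower at day 21 (30.86, 27.73 and 18.55 FPKM, against 112.33, 146.46 and 112.99 FPKM). The part of these markers in the result was not tested.

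Il3ra, the binding chain for interleukin 3, had 1.39, 1.51 and 2.19 FPKM in UIR libraries, against 0.88, 1.05 and 1.38 FPKM in sham libraries at day 1 (log2 fold 0.35 ± 0.16, limma adjusted p = 0.071). Il3ra at day 3 had 10.5, 11.53 and 9.21 FPKM in UIR libraries, against 1.11, 0.88 and 1.18 FPKM in sham libraries (log2 fold 2.47 ± 0.16, limma adjusted p = 1.4e-09). Il3ra at day 21 had 9.87, 10.9 and 13.5 FPKM in UIR libraries, against 0.83, 1.55 and 0.68 FPKM in sham libraries (log2 fold 2.63 ± 0.16, limma adjusted p = 4.2e-10). UIR libraries were far above sham at the later days, and day 1 was called under both other scalings (0.39 and 0.43, limma adjusted p = 0.045 and 0.031). Il5ra, the binding chain for interleukin 5 on eosinophils and B cells, was called at day 3 alone, with 5.47, 4.87 and 5.88 FPKM in UIR libraries, against 2.78, 3.56 and 2.81 FPKM in sham libraries (log2 fold 0.66 ± 0.17, limma adjusted p = 0.0024), a call lost under both other scalings. Its day-21 value of 0.11 turned to -0.37 and -0.80 under them, and after quantile normalization it was called lower (limma adjusted p = 0.00018). The 7 receptors under the level for the test, Il9r, Il11ra2, Il13ra2, Il1rapl2, Il20ra, Il23r and Il31ra, stayed at or under 0.51 FPKM. In the fit over all rows Il11ra2 was lower at day 1 (-0.22 ± 0.06, limma adjusted p = 0.009). Il9r, the interleukin 9 receptor, was higher at day 21, with 0.31, 0.38 and 0.41 FPKM in UIR libraries, against 0.02, 0.02 and 0 FPKM in sham libraries (0.43 ± 0.03, limma adjusted p = 5.1e-09). Il31ra, Il23r and Il11ra2 were also higher at day 21 (0.35, 0.20 and 0.33), on levels near the lowest the table resolves.

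Il4i1, a secreted enzyme of antigen-presenting cells that oxidizes phenylalanine, had 0, 0.03 and 0.28 FPKM in UIR libraries, against 0.89, 0.28 and 0.63 FPKM in sham libraries at day 1 (log2 fold -0.53 ± 0.19, limma adjusted p = 0.026). Il4i1 at day 3 had 1.48, 0.9 and 0.96 FPKM in UIR libraries, against 0.56, 0.32 and 0 FPKM in sham libraries (log2 fold 0.72 ± 0.19, limma adjusted p = 0.0028). Il4i1 at day 21 had 7.76, 7.55 and 11.26 FPKM in UIR libraries, against 0.5, 0.22 and 0.37 FPKM in sham libraries (log2 fold 2.84 ± 0.19, limma adjusted p = 1.1e-09). The day-1 decrease had groups that met at 0.28 FPKM while the later groups were apart. Quantile normalization ended the day-3 call (0.29, limma adjusted p = 0.28). The day-1 call was lost without the first or second UIR or the first or the third sham library (-0.50 to -0.40, limma adjusted p from 0.066 to 0.12). Il1bos stayed between 0.1 and 0.67 FPKM and was called at no day in the fit over all rows. In the GRCm38 annotation, exons of Il1b and Il1bos overlap on opposite strands, and among other genes of the table the same holds for Il1a, Il1rap, Il11ra1, Il12rb2, Il16, Il17rb, Il18bp, Il27 and Il27ra. Il4i1 overlaps Nup62 on its own strand and Atf5 and Tbc1d17 on the other. Other annotated genes overlap Il34, Il3ra, Il4ra, Il5, Il6ra, Il7 and Il21 on the opposite strand and Il10rb, Il2rg and Il31ra on the same strand. Whether counting used the strand is unknown here, so values of all these members are uncertain to that extent.

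Changes between days were tested as differences of the UIR minus sham effects. From day 1 to day 3, 22 of the 49 members had a larger effect and 7 a smaller one, where 50.1% and 12.7% of all genes did. From day 3 to day 21, 32 had a larger and 4 a smaller effect, where 26.1% and 20.2% did. From day 1 to day 21 the counts were 36 and 6, where 54.1% and 16.3% did. The largest early differences on the log2(FPKM + 1) scale were those of Il17rb (3.22 ± 0.20, limma adjusted p = 4.1e-09), Il1rn (2.30 ± 0.39), Il33 (2.22 ± 0.34) and Il3ra (2.12 ± 0.23) upward and of Il1r2 (-1.98 ± 0.46), Il13ra1 (-1.88 ± 0.14, limma adjusted p = 3.1e-08), Il11 (-1.59 ± 0.23) and Il15 (-1.04 ± 0.21) downward. Between days 3 and 21 the effect of Il7r grew most (3.40 ± 0.19, limma adjusted p = 5.5e-09), before Il1b (2.61 ± 0.45), Il10ra (2.43 ± 0.28) and Il2rg (2.196 ± 0.28), and that of Il22ra1 fell most (-1.25 ± 0.16, limma adjusted p = 1.5e-05).

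The sham groups differed among themselves, which bears on every day-1 value. Sham libraries of day 1 were higher than those of day 3 for 12 of the 49 members and lower for 4, where 29.7% and 12.8% of all genes were, and higher than those of day 21 for 10 and lower for 5, where 27.2% and 12.3% were. Between sham libraries of days 3 and 21, 0 members passed in limma after adjustment and 3 had an unadjusted p under 0.05, where 0.0204% of all genes were called higher and 0.0136% lower. The largest excess at day 1 was in Il34 (2.42 ± 0.30 over day 3 and 2.44 ± 0.30 over day 21), Il1f6 (1.64 and 1.61), Il1b (1.15 and 0.93) and Il4ra (0.95 and 0.89). Lower at day 1 were Il15 (-1.14 ± 0.15 and -0.92 ± 0.15), Il11ra1 (-0.63 and -0.64), Il13ra1 (-0.55 and -0.51) and Il5ra (-0.47 and -0.61). Neutrophil markers were also higher in the sham libraries of day 1 (78.34, 26.9 and 63.88 FPKM) than in those of day 3 (12.14, 15.8 and 13.85 FPKM). The sum of 3 adipose markers was higher too (7.97, 5.94 and 9.76 FPKM, against 0.07, 0.3 and 0 FPKM). At day 1 it came from Cidec (6.41, 4.22 and 7.59 FPKM) and Plin1 (1.56, 1.72 and 2.17 FPKM). The third marker, Adipoq, was listed at 0 in each of these libraries. Proximal tubule markers were lower in sham libraries of day 1 (1159.79, 1355.53 and 1318.81 FPKM) than of day 3 (3081.27, 3082.65 and 3387.23 FPKM). The part of these markers in the results was not tested. With the sham libraries of days 3 and 21 as control, 24 members were higher and 7 lower in UIR libraries of day 1. Of all 14716 genes, 5826 were higher and 4702 lower in that comparison.

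The machinery around the receptors was followed through lists of genes named from general knowledge. Of 19 signal transducers, 8 were higher and 8 lower at day 1, 18 and 1 at day 3, and 17 and 0 at day 21. All-gene shares were 28.5%, 57.6% and 60.7% higher and 31.1%, 17.9% and 20.1% lower. The list medians were 0.11, 0.99 and 1.22, beside -0.03, 0.44 and 0.53 for all genes. At day 1 the split ran within families, with Stat3 (0.59), Jak1 (0.60), Jak2 (0.77) and Traf6 (0.92) higher and Stat2 (-0.56), Tyk2 (-0.68) and Irak4 (-0.47) lower. Irak3, an inhibitor of interleukin 1 receptor signalling, was higher at each day (1.19, 1.62 and 2.62).

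Of 14 tested partner receptors and related cytokines, 8 were higher and 3 lower at day 1, 11 and 3 at day 3, and 12 and 2 at day 21. Of all genes, 28.5%, 57.6% and 60.7% were higher and 31.1%, 17.9% and 20.1% lower. The list medians were 0.67, 1.51 and 3.03, beside -0.03, 0.44 and 0.53 for all genes. Csf1, the other ligand of the interleukin 34 receptor, had log2 folds of 0.85, 3.77 and 3.74, and the receptor Csf1r had -0.02, which was not called, then 1.28 and 3.02. Csf2rb, the signalling partner of Il3ra and Il5ra, rose at each day (0.92, 1.74 and 3.94), as did the interleukin 6 family cytokines Lif (1.37, 2.08 and 2.67) and Clcf1 (1.48, 3.92 and 3.39). Sigirr, an orphan receptor that restrains interleukin 1 signalling, fell at each day (-1.63, -0.92 and -1.71).

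Of 8 genes that mature interleukins 1 beta and 18, 1 was higher at day 1, 6 at day 3 and 8 at day 21, with 0 lower, where 28.5%, 57.6% and 60.7% of all genes were higher. Their medians were -0.09, 0.91 and 2.19. Casp1, the processing protease, had log2 folds of -0.19, not called, then 1.04 and 3.04, and the pore protein Gsdmd had -0.06, not called, then 2.25 and 3.51. Of 9 feedback genes and induced targets, 7, 8 and 8 were higher at the 3 days and 0 lower. Beside both lists stand the same all-gene shares higher, and 31.1%, 17.9% and 20.1% of all genes lower. Medians of the feedback list were 1.01, 1.66 and 2.78, beside -0.03, 0.44 and 0.53 for all genes. Socs3, the feedback inhibitor of gp130 signalling, had 2.79, 2.24 and 4.31, and Nfkbiz, an interleukin 1 and 17 target, had 1.18, 2.33 and 3.15. These feedback genes were thus raised at day 1, when most of the maturation genes were not called.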

How the data were processed

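RNA sequencing of 18 kidney libraries was analysed, 3 per group. FPKM values per gene were deposited by the authors. Per the submitters' processing notes, the tools were RSEM 1.2.12, HISAT2 2.0.4 and Bowtie2 2.2.5, with build mm9, and no role is stated for any of them. Steps of low values could be read for 2 genes only, so depth was not recovered. Genes with FPKM of at least 1 in at least 3 libraries (14716) were analysed as log2(FPKM + 1) with limma 3.58.1 (R 4.3.3), with a mean per group, the variance trend and 12 residual degrees of freedom. Tests were two-sided, with Benjamini-Hochberg adjustment over all genes tested. Exact permutation with groups of 3 and 3 gives no p below 0.1 and was not used. The fit was tested on simulated data. Of the signalling lists, 1 gene is left unnamed here and is kept in the counts. The members, lists and rules were chosen with earlier results of these data known. Library values are given for members called with at least a 2-fold change at any day and for a list of 31 well-known members, with those whose highest group mean was under 2 FPKM given by range. All 73 members matched RefSeq by Entrez identifier, and 57 had an upstream sequence (GRCm38.p6). Alternatives were pseudocounts of 0.1 and 5, filters, TPM, median-of-ratios and quantile scaling, library weights, a replicate block, fits of the compared groups alone, another sham control and leaving out each library.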

Additional observations from a re-analysis of the deposited data

Results flagged for a closer look

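Effects of UIR against sham that differed between days, by a test of the difference itself in limma, are listed for the 4 members with the largest difference in each direction. Between days 1 and 3 the effect was larger at day 3 for Il17rb (3.22 ± 0.20, limma adjusted p = 4.1e-09), Il1rn (2.30 ± 0.39, limma adjusted p = 9.5e-05), Il33 (2.22 ± 0.34, limma adjusted p = 3.6e-05) and Il3ra (2.12 ± 0.23, limma adjusted p = 1.3e-06). It was smaller at day 3 for Il1r2 (-1.98 ± 0.46, limma adjusted p = 0.0014), Il13ra1 (-1.88 ± 0.14, limma adjusted p = 3.1e-08), Il11 (-1.59 ± 0.23, limma adjusted p = 2.3e-05) and Il15 (-1.04 ± 0.21, limma adjusted p = 0.00049). Il17rb changed sides, with no overlap of UIR and sham libraries at either day. Il15 means at days 1 and 3 were 3.82 and 4.16 FPKM in UIR libraries and 4.16 and 10.1 FPKM in sham libraries. The Il15 difference thus holds a change of the sham groups.

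Between days 3 and 21 the effect was larger at day 21 for Il7r (3.40 ± 0.19, limma adjusted p = 5.5e-09), Il1b (2.61 ± 0.45, limma adjusted p = 0.00023), Il10ra (2.43 ± 0.28, limma adjusted p = 5.8e-06) and Il2rg (2.196 ± 0.28, limma adjusted p = 1.5e-05). It was smaller at day 21 for Il22ra1 (-1.25 ± 0.16, limma adjusted p = 1.5e-05), Il24 (-1.15 ± 0.23, limma adjusted p = 0.00079), Il17rb (-1.10 ± 0.20, limma adjusted p = 0.0004) and Il17rc (-0.59 ± 0.20, limma adjusted p = 0.022). For Il24, and for Il1r2 at day 21, these are differences on the log2(FPKM + 1) scale against sham libraries listed at 0.

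Between days 1 and 21 the effect was larger at day 21 for Il2rg (4.13 ± 0.28, limma adjusted p = 6.8e-09), Il33 (4.10 ± 0.34, limma adjusted p = 4e-08), Il21r (3.63 ± 0.29, limma adjusted p = 2.8e-08) and Il10ra (3.55 ± 0.28, limma adjusted p = 2.6e-08). It was smaller at day 21 for Il24 (-1.81 ± 0.23, limma adjusted p = 3.8e-06), Il13ra1 (-1.41 ± 0.14, limma adjusted p = 3.5e-07), Il1r2 (-1.38 ± 0.46, limma adjusted p = 0.013) and Il11 (-0.74 ± 0.23, limma adjusted p = 0.0093). The sham libraries of day 1 differed from the later ones, so for Il13ra1, whose sham level was lower at day 1, and Il11, whose sham level was higher, the differences hold a change of the sham groups too. Groups of 3 libraries are too small for a rule on single outlying libraries.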

How the results depend on the processing

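Sign changes are given where a member was called under either setting. Under median-of-ratios scaling, Il10rb (-0.054), Il13ra1 (-0.41), Il17ra (-0.36) and Il22ra1 (-0.29) turned negative at day 3, and Il13ra1 (-0.022), Il17ra (-0.42) and Il5ra (-0.37) at day 21. Under quantile normalization, Il11 (-0.41), Il12rb2 (-0.14), Il17ra (-0.34), Il22ra1 (-0.57) and Il2ra (-0.30) turned at day 3, and Il1f9 (-0.12), Il15ra (-0.38), Il17ra (-0.39), Il17rb (-0.22), Il1rap (-0.25) and Il5ra (-0.80) at day 21. Both scalings take out the shift of the median gene. With the later sham libraries as control, Il17rc turned at day 1 (0.59).

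Counts of members that moved by over 1.5 times were these. Under median-of-ratios scaling 7 members were lower at day 3 and 5 at day 21, and under quantile normalization 9 and 6 (2 and 3 as reported). A filter of FPKM of at least 5, which tests fewer genes, left 10 members higher at day 1 (17). Effects smaller at day 3 than at day 1 (7) were 4 with TPM and 14 under quantile normalization, where 13 were larger (22). Of all 14716 genes, 1876 had a smaller effect as reported, 1197 with TPM and 3885 under quantile normalization, where 3900 had a larger one (7377). Effects smaller at day 21 than at day 1 (6) were 2 with a pseudocount of 0.1 and with TPM, 3 with the stricter filter and 11 under quantile normalization. Effects smaller at day 21 than at day 3 (4) were 7 with a pseudocount of 5, quantile normalization or library weights, and 2 with the stricter filter. Of the sham day-1 excess over day 21 (10), 6 members were left with a pseudocount of 5 and 16 called with weights, and of the deficit (5), 3 with the stricter filter. The deficit against day 3 (4) was 8 under quantile normalization. Between sham days 3 and 21, weights called 2 higher and 1 lower (0 and 0). The cause of these shifts was otherwise not tested.

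Leaving out each library gave 16 to 19 members higher and 4 to 5 lower at day 1, 32 to 35 and 2 at day 3, and 42 to 43 and 2 to 3 at day 21. Without the third UIR library of day 3, 35 were higher and 2 lower. The differences between days ranged from 21 to 25 and 7 to 8 (days 1 and 3), 30 to 32 and 4 to 6 (days 3 and 21) and 36 to 37 and 5 to 6 (days 1 and 21). The sham differences ranged from 10 to 12 and 3 to 4, from 8 to 9 and 4 to 6, and, between days 3 and 21, from 0 to 0 and 0 to 1. Calls of Il18bp, Il11ra1 and Il4i1 at day 1 and of Il2ra, Il12rb2 and Il1r2 at day 3 and of Il11ra1 at day 21 ended in at least 1 of these, and day-1 calls of Il17re, Il17ra, Il17rc, Il6st, Il7r, Il3ra, Il1f9 and Il12rb1, of Il7r at day 3 and of Il15ra at day 21 arose.

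Libraries of the same replicate number were not paired by the labels. Their deviations correlated at over 0.1 in 2 of 9 pairs (range -0.07 to 0.11), and 4 of 9 UIR libraries matched their own number best. With a replicate block, 16 members were higher and 5 lower at day 1, 35 and 2 at day 3, and 42 and 3 at day 21, and of the calls against sham that of Il18bp at day 1 alone was lost.

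Limits are few libraries per group, unknown depth, FPKM without counts, whole tissue, an unnamed kidney, sham libraries that differ between days, and an unknown use of strand.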
